A study of Homo sapiens with 9 samples.

Results

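The 10 genes described here encode the cytosolic translation elongation factors and their closest partners: EEF1A1, EEF1A2, EEF1B2, EEF1D, EEF1G, EEF1E1, EEF2, EEF2K, EEFSEC and EIF5A. They were chosen by name, around EEF1B2, which had been selected on its PF8503 value in these same data. The members' compound-to-vehicle ratios are therefore given as descriptions, with no test. Of the 10 listed genes, 8 had a row in both deposited tables, which hold 9157 transcripts for PF8503 and 8839 for PF846, with 8775 in both. EEF1A2 and EEF1G were not analysed here.

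The experiment was ribosome profiling, the sequencing of mRNA fragments protected by ribosomes, in Huh-7 cells, an established human hepatocellular carcinoma line. Cells received 1.5 µM PF8503, 1.5 µM PF846 or 0.5% DMSO as vehicle for 1 hr, with 3 biological replicates each and 9 libraries in all. PF8503 and PF846 are related small molecules that slow the ribosome on a limited set of nascent chains. A single cell line, dose and time limit the experiment as a model, and all ratios share the same vehicle libraries.

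The deposited values are the authors' means of normalized counts, one for vehicle and one for compound in each table, so no SD and no test between conditions could be computed from them here, and they do not give the depth of each library. The authors' own test columns in these tables were not used, and values of single libraries were not analysed here. Each library name carries a sequencing lane, and no lane held more than 1 condition, so that lane and condition cannot be told apart. The cell identity was checked through markers. All 9 hepatocyte markers examined were present, with vehicle means in the PF8503 table from 1296 for SERPINA1 to 212970 for AFP. Of 5 markers of blood, endothelium and fibroblasts only PECAM1 was listed, at a vehicle mean of 170.0, and PTPRC, CD3E, VWF and COL1A1 had no row.

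In the elongation cycle, eEF1A bound to GTP delivers aminoacyl-tRNA to the ribosome, and an exchange complex returns it to the GTP form. EEF1B2 and EEF1D encode the exchange subunits of that complex and EEF1G its scaffold subunit. eEF2 then moves the tRNAs and mRNA by a codon, and eEF2 kinase phosphorylates and inactivates eEF2. eIF5A, which carries the modified lysine hypusine, helps the ribosome form difficult peptide bonds, such as those between consecutive prolines. EEFSEC delivers selenocysteyl-tRNA, and EEF1E1, also known as AIMP3, is a scaffold protein of the multi-tRNA synthetase complex. Many mRNAs of elongation factors start with a terminal oligopyrimidine (TOP) tract and are translated together with those of ribosomal proteins.

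The start of the EEF1B2 coding sequence is shown because only for this member did the counted region differ between the tables. EEF1B2 (ENSG00000114942) lies at chr2:206159895-206162928 on the plus strand of GRCh38 and has 6 exons and 225 residues in the canonical transcript of Gencode v44. Its first 180 coding bases come from exon 1 (chr2:206159980-206160059) and exon 2 (chr2:206160588-206160687). Capitals mark the codons of 3 consecutive prolines at residues 44 to 46.
EEF1B2: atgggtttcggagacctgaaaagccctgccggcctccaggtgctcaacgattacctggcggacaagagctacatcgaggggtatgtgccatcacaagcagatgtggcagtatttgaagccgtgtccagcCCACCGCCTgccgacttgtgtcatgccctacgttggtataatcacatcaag
No other of the 10 members has a run of 3 or more prolines. Such a run occurs in 23.7% of 19675 canonical human proteins, and 5.07% have one within the first 60 residues, as EEF1B2 does. The match is a description of the sequence and says nothing of where ribosomes stood.

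The opening coding bases of EIF5A and of EIF5AL1, a nearly identical gene, are shown because the authors kept only reads with a single position in the transcriptome. Both stretches cover coding bases 1 to 90. They were read from exon 2 of EIF5A at chr17:7309636-7309725 and from exon 1 of EIF5AL1 at chr10:79512650-79512739, both on the plus strand of GRCh38. Capitals mark the base that differs.
EIF5A: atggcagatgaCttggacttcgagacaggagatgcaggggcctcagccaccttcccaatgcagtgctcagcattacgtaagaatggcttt
EIF5AL1: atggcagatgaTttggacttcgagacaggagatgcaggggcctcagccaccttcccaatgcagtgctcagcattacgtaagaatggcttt
The coding sequences differ at 5 of 465 positions and the proteins share 98.1% of their residues. Of the 375 windows of 28 bases in the counted part of EIF5A, 292 (77.9%) also occur in EIF5AL1. For the other 9 members no window of this length was shared with another canonical coding sequence, including EEF1A1 and EEF1A2, whose proteins are 92.6% identical. The signal of EIF5A thus rests on few positions, if EIF5AL1 was in the authors' reference, and its level is uncertain.

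In the region counted for PF8503, EEF1B2 had fewer footprints with the compound. Over the longer region counted for PF846 it had nearly the same number as with vehicle. EEF2K was the only other member beyond a log2 ratio of 0.25 with either compound. That size was used as the mark for a called value. With PF8503, 2 of 8 members were lower by this mark and 0 were higher. EEF1B2, 1 of these 2, had been selected on this value, and without it 1 of 7 members was lower. Of all transcripts, 4.23% were as much lower with PF8503 and 3.79% as much higher. With PF846, 0 of 8 members were lower and 0 higher, against 2.13% and 1.66% of all transcripts. Of the 2 called members, EEF2K at -0.35 lay nearest inside the mark, and the nearest value outside it was EEF1E1 with PF846 at -0.20.

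**Figure D1:**
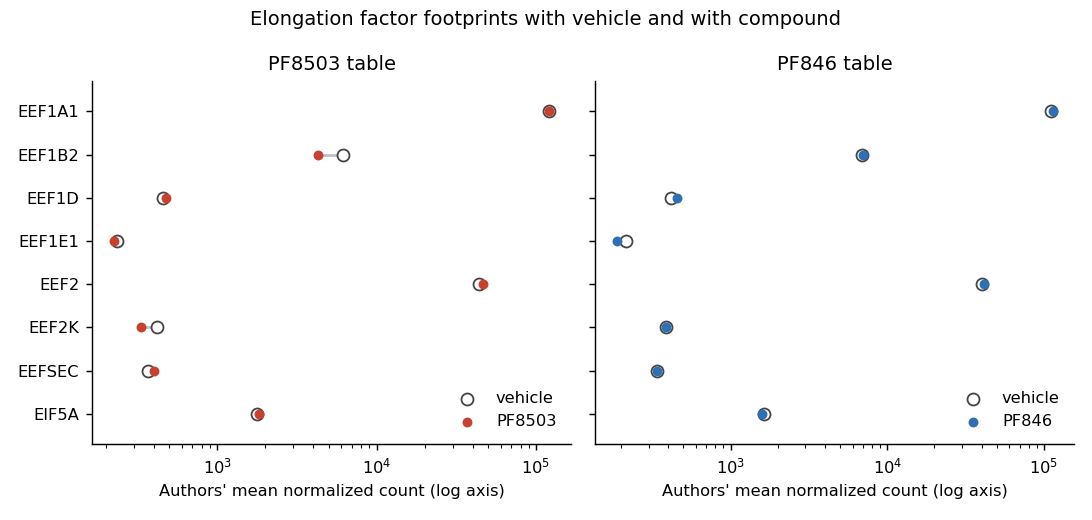
Authors' mean normalized count (log axis) of the 8 elongation factors, as open circles for vehicle and filled circles for compound, in the PF8503 table (left) and the PF846 table (right); each point is a mean without error. The circles nearly coincide except for EEF1B2 (6152 with vehicle, 4292 with PF8503) and EEF2K (422.2 and 330.6) in the left panel. The region counted for EEF1B2 was shorter in the left panel than in the right.

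Among the members of the first step of the cycle, EEF1A1, the GTPase that carries the tRNA, was at nearly the same mean in both conditions. Its authors' mean was 121385 with vehicle and 121468 with PF8503, a ratio of 1.00 (log2 0.00). In the PF846 table the means were 111105 and 113578, a log2 ratio of 0.03.

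EEF1B2, the smaller exchange subunit, had an authors' mean of 6152 with vehicle and 4292 with PF8503. The ratio was 0.698, a difference of -0.52 on the log2 scale. With PF846 its mean, over a longer counted region, was 7026 against 6931 with vehicle, a log2 ratio of 0.02. EEF1B2 ranked 94 of 9157 transcripts from the lowest log2 ratio with PF8503. Of the 2037 transcripts with a vehicle mean from 1000 to 10000, 1.13% were as low. Both figures restate the value on which EEF1B2 was selected. With PF846 it stood near the middle, where 58.9% of all transcripts were as low or lower.

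EEF1D, the larger exchange subunit, was slightly above vehicle in both tables, within the bulk of transcripts. Over 142 aligned positions at the ends of the 2 proteins (residues 84 to 225 of EEF1B2, 504 to 647 of EEF1D), 79.6% of residues are identical. The mean of EEF1D was 455.8 with vehicle and 478.0 with PF8503, a log2 ratio of 0.07. With PF846 it was 456.2 against 417.2, a log2 ratio of 0.13. Both ratios lay within the central 95% of transcripts with vehicle means from 100 to 1000. EEF1D, the closest relative of EEF1B2 in the set, thus had no lower value with PF8503 than with vehicle. Its counted region was the same in both tables, whereas that of EEF1B2 was shorter for PF8503. The PF8503 ratios of the 2 genes are therefore not like for like.

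EEF1E1, the scaffold protein of the synthetase complex, had the lowest vehicle mean of the 8 and the lowest ratio with PF846. Its means were 235.7 with vehicle and 224.5 with PF8503, a log2 ratio of -0.07. With PF846 they were 215.8 and 188.1, a log2 ratio of -0.20. Of 5907 transcripts in its signal class in the PF846 table, 3.81% were as low.

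EEF2, the translocase, had the second highest signal of the 8, and both ratios were slightly above 0. Its means were 43743 with vehicle and 46331 with PF8503, a log2 ratio of 0.08. With PF846 they were 40039 and 41200, a log2 ratio of 0.04.

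EEF2K, the kinase that inactivates eEF2, was lower with PF8503 and level with PF846. Its means were 422.2 with vehicle and 330.6 with PF8503, a ratio of 0.783 (log2 -0.35). With PF846 they were 386.5 and 387.8, a log2 ratio of 0.00. In the class of vehicle means from 100 to 1000, 2.00% of 5914 transcripts were as low with PF8503. The substrate, EEF2, at 0.08 with PF8503, lay within the central 95% of its own class.

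EEFSEC, the factor for selenocysteine, had the highest log2 ratio of the 8 with PF8503, at 0.12, from means of 368.0 with vehicle and 399.1 with the compound. With PF846 its means were 336.9 and 339.2, a log2 ratio of 0.01. EIF5A had means of 1780 with vehicle and 1832 with PF8503, a log2 ratio of 0.04. With PF846 its means were 1630 and 1583, a log2 ratio of -0.04. Both ratios of both genes lay within the central 95% of transcripts of their signal class.

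**Figure D2:**
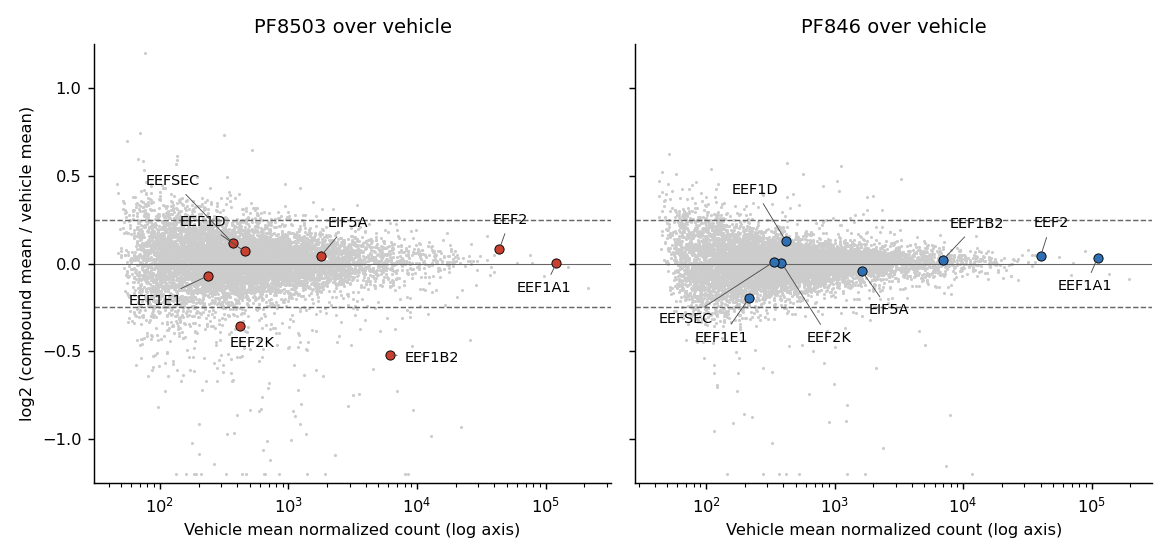
Log2 of the compound mean over the vehicle mean against the vehicle mean normalized count (log axis) for the 8775 transcripts in both tables (grey, values past the axis range drawn at its edge) and the 8 elongation factors (coloured, named), with dashed lines at 0.25 and -0.25. EEF1B2 and EEF2K lie below the lower line with PF8503, and all 8 lie between the lines with PF846.

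The spread of the ratios depended on signal, and this was set against each member. The robust SD of the log2 ratio with PF8503 was 0.115 for vehicle means from 100 to 1000, 0.0865 from 1000 to 10000 and 0.0576 above 10000. With PF846 the corresponding values were 0.0897, 0.0550 and 0.0335. Of the 16 values of the members, 14 lay within the central 95% of their class, the exceptions being EEF1B2 and EEF2K with PF8503. EEF1B2 had been selected on that value. This spread runs across transcripts and is not a replicate error.

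The codons that were counted differed for EEF1B2 between the tables, which bears directly on its values. Where the gap between the cumulative read curves of compound and vehicle reached a Z score of 2, the authors counted only reads 3' of the codon with the widest gap, and otherwise from 10 codons after the start. The vehicle libraries are the same in both tables, so the ratio of their means is constant, at 1.09, where the same codons were counted. For 7 of the 8 members the ratio departed from it by less than 0.002 on the log2 scale. For EEF1B2 it departed by -0.30, so that its counted region in the PF8503 table held 81.2% of the vehicle signal counted in the PF846 table. The -0.52 with PF8503 and the 0.02 with PF846 were thus taken over different stretches of EEF1B2, and the first over a stretch whose start was chosen from the same reads.

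A shorter region in the PF8503 table was found for 92 of 8775 transcripts, and EEF1B2 was among them. All 92 were below 0 with PF8503, 86 of them by at least 0.25, with log2 ratios from -2.09 to -0.11 and a median of -0.58. EEF1B2 ranked 54 of the 92 from the lowest, and its share of 81.2% of the vehicle signal compared with a median of 79.1%. With PF846 the median of the 92 was -0.01, and 8 were lower by at least 0.25. Since the rule for the region uses the same contrast, the low values of these transcripts with PF8503 are no independent evidence.

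**Figure D3:**
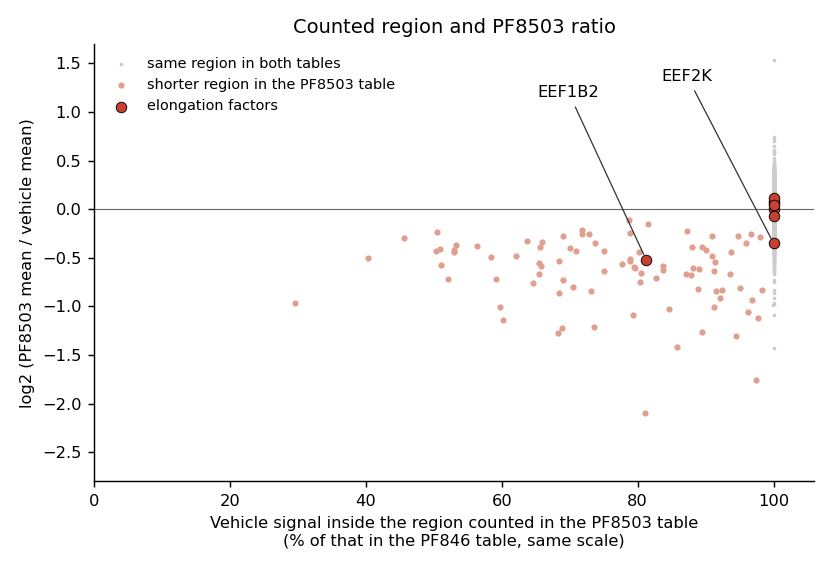
Log2 of the PF8503 mean over the vehicle mean against the vehicle signal in the region counted in the PF8503 table, as a percentage of that in the PF846 table on the same scale, for transcripts with the same region (grey), the 92 whose region was shorter in the PF8503 table (light red) and the 8 elongation factors (dark red). The 42 with the shorter region in the PF846 table are left out. EEF1B2 lies at 81.2% among the 92 and EEF2K at 100.0% with the other members.

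For EEF2K the same codons were counted in both tables. The difference of its log2 ratios, PF8503 minus PF846, was -0.36, a ratio of 0.780 between the compounds, in which the shared vehicle libraries cancel. Among 8641 transcripts with the same region in both tables, 0.984% had a difference as low. These transcripts span all signal levels, so that share is not matched to the signal of EEF2K. The central 95% of those differences ran from -0.25 to 0.26.

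The members other than EEF1B2 and EEF2K differed less between the compounds at the matched dose and time. The difference was -0.54 for EEF1B2, over unequal regions, and ranged from -0.06 for EEF1D to 0.13 for EEF1E1 over the other 6. Of the 8 differences, 2 were at least 0.25 lower and 0 at least 0.25 higher. Over the transcripts in both tables the shares were 3.56% and 3.04%. EEF1B2, selected on its PF8503 value, was 1 of the 2. No interval for any of these 8 differences could be computed from the means, and the values do not show that the compounds act alike on the other 6.

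With vehicle, the order of the members by signal per codon spanned a wide range. The vehicle mean of the PF846 table was divided by the codons that could be counted, all but the first and last 10, and set against the median transcript of 8738 with a known coding length. Lengths were those of canonical transcripts in Gencode v44, whereas the authors counted on v24. A region shortened alike in both tables would also go unseen, so all levels and ranks here are approximate. EEF1A1 had 251.4 normalized counts per codon, 295-fold over the median transcript, and ranked 2 from the highest. EEF2 followed at 47.8 per codon (56.0-fold), EEF1B2 at 33.8 (39.6-fold) and EIF5A at 12.2 (14.3-fold). The place of EIF5A is uncertain, as 77.9% of its windows also occur in EIF5AL1. If that gene was in the authors' reference, reads from those windows were dropped and the value of EIF5A is too low. EEF1E1 was near the middle at 1.40 (1.64-fold), and EEF1D at 0.665, EEFSEC at 0.585 and EEF2K at 0.548 were below the median transcript. Per codon, EEF1A1 was thus 5.26-fold over EEF2, and EEF2 was 87.2-fold over its kinase.

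The place of EEF1D in this order is uncertain too. Its canonical transcript encodes 647 residues, whereas 9 of 45 coding transcripts of the gene, the commonest length, encode 281. With that length EEF1D would stand at 1.60 per codon (1.87-fold over the median transcript), between EIF5A and EEF1E1. EEF1B2 was 50.8-fold over EEF1D with the long form and 21.2-fold with the shorter one. Only these 2 lengths were tried, while coding transcripts of EEF1D range from 21 to 697 residues. Which of them the authors counted is not known here, so the size of the gap is uncertain. The neighbours EEF1D, EEFSEC and EEF2K, and EEF1E1 and EEF1D, have no measured spread by which to tell them apart.

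**Figure D4:**
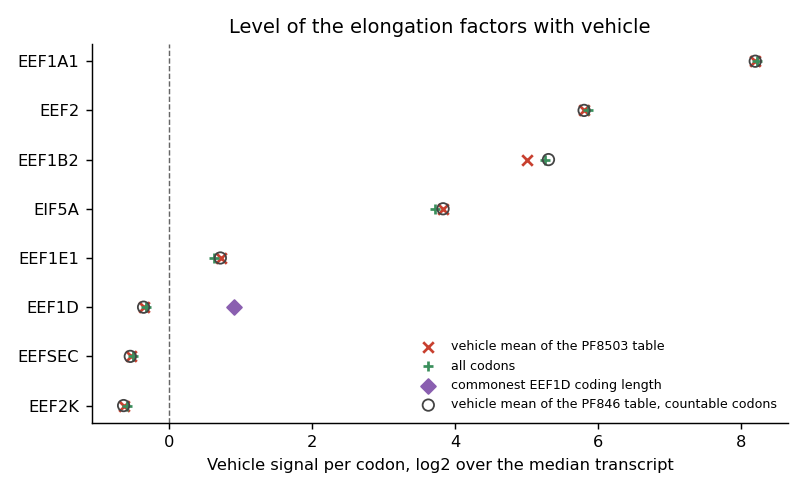
Vehicle signal per codon as log2 over the median transcript for the 8 elongation factors (open circles: vehicle mean of the PF846 table over countable codons), with the values from the vehicle mean of the PF8503 table (crosses), over all codons (plus signs) and with the commonest coding length for EEF1D (diamond). EEF1A1 stands highest at 8.20 and EEF2K lowest at -0.64, and the diamond moves EEF1D from -0.36 to 0.91.

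The enzymes and partners around these factors had log2 ratios within 0.25 of vehicle, except DPH7 with PF846. Of 37 listed genes, 30 had values in both tables, and with PF8503 0 were lower and 0 higher by at least 0.25, with a median log2 ratio of 0.02 and a range from -0.16 to 0.16. With PF846, 1 was lower and 0 higher, with a median of -0.02. Over all transcripts, 4.23% were lower and 3.79% higher by this mark with PF8503, and 2.13% and 1.66% with PF846, so counts this small among 30 genes do not set the partners apart. Over all transcripts in both tables the medians were 0.01 and 0.00.

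By role, the 2 hypusine enzymes that modify eIF5A had PF8503 ratios from -0.03 to 0.16, DOHH being the higher at 0.16 (292.9 with vehicle, 326.4 with PF8503). The 6 diphthamide genes, whose products modify a histidine of eEF2, ranged from -0.13 to 0.10 with PF8503. DPH7 among them was the gene lower with PF846, from 110.8 with vehicle to 91.1, a log2 ratio of -0.28, at a vehicle mean close to the lowest class. EEF2KMT, a methyltransferase of eEF2, was at -0.13 with both compounds. The 5 genes of selenocysteine insertion ranged from -0.06 to 0.11 with PF8503 and the 4 mitochondrial elongation factors from -0.16, for GFM2, to 0.09. Among the GTPases related to eEF1A and eEF2, GTPBP2 was the highest with PF846 at 0.13.

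**Figure D5:**
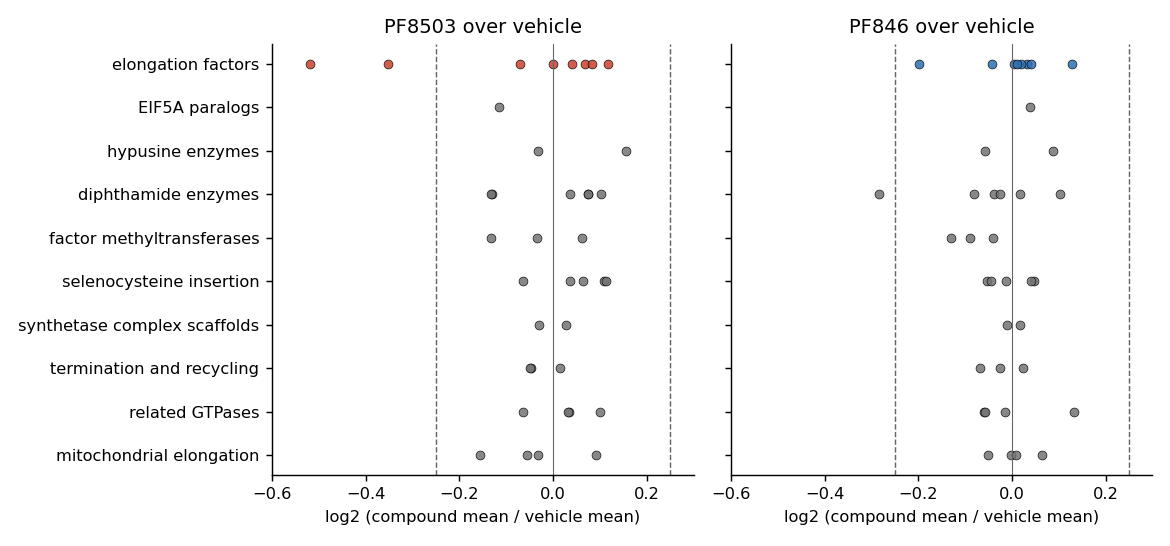
Log2 of the compound mean over the vehicle mean for the 8 elongation factors (coloured) and the 30 genes of the partner groups (grey), one row per group, with PF8503 (left) and PF846 (right) and dashed lines at -0.25 and 0.25. EEF1B2 at -0.52 and EEF2K at -0.35 are the only points beyond the lines with PF8503, and DPH7 at -0.28 is the only one with PF846.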

How the data were processed

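Per the study's methods, the authors trimmed adapters (FASTX toolkit), discarded ribosomal RNA reads with Bowtie, aligned the rest with Bowtie to canonical coding transcripts of Gencode v24 (GRCh38), kept reads with a single position, and assigned P sites by fragment length. Versions are not given in the sources used here. They kept transcripts with more than 30 counts. The values used are deposited signals, the authors' means of counts divided by DESeq size factors; their columns of fold changes and p-values were not used. Values of single libraries were not analysed here, so no p-value, SD or leave-one-out fit was computed. Log2 ratios of the means were computed in Python 3.11.15 with pandas 2.3.3, after a test on simulated data, and proteins were aligned with biopython 1.88. Members and lists were chosen with earlier results of these data known. Named were all members, the 3 largest log2 ratios per compound in the partner list at vehicle means of at least 100, the 5 transcripts nearest EEF1B2, and the markers. Older symbols were matched through RefSeq. Alternatives were other thresholds, centring, scaling, pseudocounts and filters.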

Additional observations from a re-analysis of the deposited data

How the results depend on the processing

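The log2 ratios of all 8 members and their differences moved by at most 0.0127 when centred on the median transcript, scaled to column sums or given a pseudocount of 1 or 10, and none crossed 0.25. The count of members lower with PF8503 was 1 in place of 2 at a threshold of 0.5, where EEF2K drops out, and 1 where a vehicle mean of at least 1000 was asked for, which leaves EEF2K out. At a threshold of 0.15 the count lower with PF846 was 1 in place of 0, EEF1E1. Vehicle levels per codon moved to 5.01 for EEF1B2 with the PF8503 table, whose region was shorter, to 3.72 for EIF5A over all codons, and to 0.91 for EEF1D with the commonest coding length, an alternative chosen after seeing the data. At a tolerance of 0.01 EEF1B2 was still the 1 member with another counted region. With a vehicle mean of at least 100, the shares of all transcripts higher by 0.25 were 2.45% with PF8503 and 0.858% with PF846. At a minimum of 1000 they were 0.552% and 0.545%, and those lower 3.18% and 0.942%. No paired analysis was possible because the columns used are means over replicates. For the same reason no replicate could be left out. Low signal limits EEF1E1, EEFSEC, EEF2K and EEF1D the most.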

Other observations

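The transcripts most like EEF1B2 over both compounds, by Euclidean distance of the log2 ratios among 2010 others with vehicle means of at least 1000, were RPL13, ATP13A1, MRPS27, ADAMTS1 and SLC13A5. RPL13, a protein of the large ribosomal subunit, had -0.51 with PF8503 and 0.03 with PF846, and its region in the PF8503 table held 78.8% of the vehicle signal. ATP13A1, a transporter of the endoplasmic reticulum, had -0.49 and 0.01 with a share of 58.4%. MRPS27, a mitochondrial ribosomal protein, had -0.47 and 0.05, the secreted protease ADAMTS1 -0.49 and 0.07, and the citrate transporter SLC13A5 -0.58 and -0.01, all with the same region in both tables. Their likeness is of 2 values each and was not tested.

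Many elongation factor mRNAs belong to the TOP class. Of 12 TOP mRNAs listed outside the ribosome, 11 had values, with log2 ratios from -0.10 to 0.15 with PF8503 and from -0.07 to 0.07 with PF846, and 0 beyond 0.25. Over all transcripts, 4.23% were lower and 3.79% higher by this size with PF8503, and 2.13% and 1.66% with PF846, so a count of 0 among 11 does not set them apart. The 80 transcripts with symbols of cytosolic ribosomal proteins, paralogs included, had medians of 0.00 with both compounds. Of these, 5 were lower by at least 0.25 with PF8503 and 0 higher, beside 4.23% and 3.79% of all transcripts. Most of the 80 had vehicle means of at least 1000, where the shares of all transcripts were 3.18% lower and 0.552% higher. The 5 were RPL27 at -0.98, RPS15A at -0.73, RPL13 at -0.51, RPL10A at -0.47 and RPS27L, a paralog of RPS27, at -0.26. They were named after their values were seen. With PF846, where the share of all transcripts was 2.13%, RPL27 alone of the 80 was lower by this size, at -1.39, with a mean of 4488 against 11761 with vehicle.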
